A study of Drosophila melanogaster with 4 samples.

Results

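The spalt locus of Drosophila melanogaster holds the genes salm (spalt major) and salr (spalt-related), and the H3K27me3 regions around it in adult head nuclei are described here. The members are all enriched regions that touch chromosome 2L between 11.28 and 11.53 Mb on FlyBase release 5. There were 25 of them among the 25702 regions of the 3 deposited lists, with 2 of 4865 in ChIP replicate 1, 15 of 10330 in ChIP replicate 2 and 8 of 10507 in the list of the whole series. The window was chosen because earlier results on these data had shown a very wide region there. Its coverage, the width of its regions and their scores are therefore descriptions and carry no test.

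Both groups, the 2 ChIP libraries and the 2 input libraries, came from heads of wild-type Oregon-R flies of mixed adult age, raised in population cages over a 22-day cycle. Heads were separated from bodies with sieves, the tissue was fixed with formaldehyde, and sonicated chromatin was precipitated with an Abcam antibody to H3K27me3 of lot 3. Each ChIP library was paired with 1 input by the labels, and the inputs entered only through the lists. Nothing in the labels ties the replicates to different fly collections, and their spread may be technical. Whole heads mix neurons, glia, eye, fat and cuticle cells, and how many nuclei carry the mark cannot be told apart from how much of it each nucleus carries. Read numbers were not in the lists, so the depth behind each region is unknown.

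H3K27me3 is trimethylation of histone H3 at a lysine in its tail, placed by the Polycomb complex PRC2 and bound by PRC1. It covers developmental genes that are held silent, often in stretches far longer than a gene. The salm and salr genes encode related zinc finger transcription factors with relatives, the SALL proteins, in vertebrates. In the fly they act in wing patterning downstream of the signal Dpp, in the hearing organ of the antenna, and in the eye, where they are needed in the inner photoreceptors R7 and R8. The deposited lists name no genes, and the gene table at hand is of release 6 while the regions are on release 5. That the domain lies over salm and salr thus rests on the locus name and was not checked by position. The order of genes in that table puts salr and salm side by side on 2L with 0 protein-coding genes between them. Before salr come Ppt2, mre11, Osi21 and CG14926, and after salm come CG43355, sala, Cog8 and spz4.

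In both replicates the spalt window was mostly covered by a single wide domain, once regions under 5000 bp apart were joined. Replicate 1 covered 84.7% of the window (211.7 kb) and replicate 2 covered 88.9% (222.2 kb), a mean of 86.8% ± 2.97 (SD, n = 2). The rest of 2L was covered to 25.3% in replicate 1 and to 32.7% in replicate 2. The window minus the rest of its arm gave 59.4 percentage points for replicate 1 and 56.2 for replicate 2, with a mean difference of 57.8 ± 2.28 (SD, n = 2). In the whole-series list, 89.8% of the window and 39.1% of the rest of 2L lay in regions. Replicate 2, the longer list, covered more than replicate 1 both in the window and outside it. Cover of the window was 3.35 times that of the rest of the arm in replicate 1 and 2.72 times in replicate 2.

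**Figure D1:**
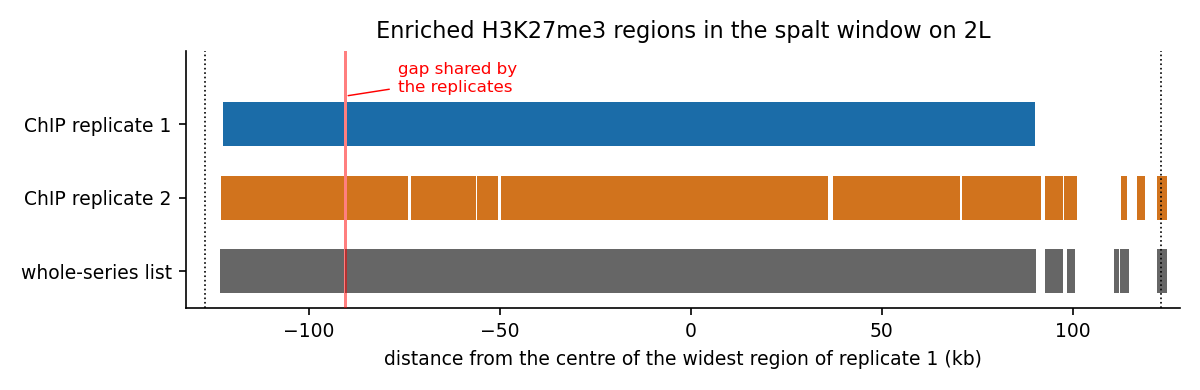
Enriched H3K27me3 regions of the 3 lists in the spalt window, drawn to scale as bars against the distance in kb from the centre of the widest region of replicate 1. Dotted lines mark the ends of the window, and the red line marks the 688 bp gap open in both replicates. Replicate 1 has 2 regions, replicate 2 has 15 and the whole-series list has 8.

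The domain was defined in each list by joining regions of the window that lay under 5000 bp apart. It ran from 11284624 to 11497021 in replicate 1, a span of 212.4 kb. In replicate 2 it ran from 11283961 to 11508021, a span of 224.1 kb. The mean span was 218.2 kb ± 8.25 (SD, n = 2), and the span of replicate 1 lay wholly inside that of replicate 2. In the whole-series list the domain ran from 11283934 to 11507494, a span of 223.6 kb. Regions filled 99.7% of the span in replicate 1, 97.2% in replicate 2 and 98.3% in the whole-series list. Gaps short enough to be joined were common on the arm. On 2L outside the domain, 64.4% of the gaps in replicate 1 were under 5000 bp. The share was 69.9% in replicate 2 and 76.3% in the whole-series list.

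The left edge was nearly the same in all 3 lists. The edges of the replicates lay 663 bp apart, and that of the whole-series list lay 27 bp outside the edge of replicate 2. To the left of it, sequence free of regions extended for 58.7 kb in replicate 1, 26910 bp in replicate 2 and 26981 bp in the whole-series list. The region that ended this free stretch was narrow in each list. In replicate 1 it was 1750 bp wide with a score of 0.57, and in replicate 2 it was 1939 bp wide with a score of 0.51. The first region of the domain on this side had a score of 2.10 in replicate 1 and 1.93 in replicate 2, so no low-scoring fringe was called there.

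The right edge differed between the replicates by 11.0 kb. Replicate 1 ended at 11497021 and was then free of regions for 34.7 kb. Replicate 2 went on to 11498601 with its last region in common with replicate 1, and then added 3 narrow regions of 1495, 3322 and 3374 bp. These had scores of 0.61, 0.45 and 0.76, where the median of the list was 0.68. Of the 11.0 kb between the right edges, replicate 2 covered 88.8% and the whole-series list 64.1%. Beyond this shoulder, in the last 22.0 kb of the window, replicate 2 had 3 further regions covering 20.3% and the whole-series list 3 regions covering 21.3%, while replicate 1 had none. The signal in the shoulder was thus called in replicate 2 and in the whole-series list, which is not independent of it, and not in replicate 1. As read depth is unknown and the lists hide signal under the threshold, no shoulder in replicate 1 means only that none was called.

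The border of the window cut through this ragged side. The last region counted in replicate 2, at 11529065 to 11531731 with a score of 0.55, crosses the border, as does that of the whole-series list at 11528960 to 11531697 with a score of 0.35. Just outside, replicate 1 had a region at 11531745 to 11533155 with a score of 0.56, only 1744 bp past the border. The next region of replicate 2 lay 7616 bp and that of the whole-series list 5075 bp past it.

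Replicate 1 built the domain from 2 regions. The left one, at 11284624 to 11316254, was 31.6 kb wide and had a score of 2.10, with rank 46 among the 4865 scores of its list. The right one, at 11316969 to 11497021, was 180.1 kb wide, the third widest of the list, and had a score of 2.01 with rank 67. Both scores thus lay above those of at least 98.6% of the list, whose median was 0.68. All scores are the authors' own values on a scale not given in the sources used here, and they are read only within a list.

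Replicate 2 built the same domain from 12 regions, from 1495 to 68966 bp wide with a median of 13.9 kb. The left region of 32.3 kb, at 11283961 to 11316280, matched the left region of replicate 1 as a single piece. Where replicate 1 had its wide region, replicate 2 had 8 pieces in a row. The first 3 were 16.0, 16.9 and 5.41 kb wide with scores of 1.58, 1.46 and 1.49. The next was the widest, 69.0 kb at 11357385 to 11426350, with a score of 2.02. A piece of 16.3 kb at 11426543 to 11442837 followed and had the highest score of the window in this list, 2.13, with rank 73 among 10330. The last 3 pieces were 33.2, 11.9 and 8.57 kb wide with scores of 1.76, 0.88 and 1.56.

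In replicate 2 the left region and the centre of the domain scored highest, with lower pieces between them and to the right. The pieces from 11357385 to 11442837 and the left region had scores above those of at least 98.6% of the list. The lowest of the 9 pieces shared with replicate 1, at 11478109 to 11489998, still scored above 74.0% of the list but ranked only 2681. The 3 shoulder pieces to the right had ranks of 6310, 8674 and 4151. Replicate 1 gave 1 score for the whole stretch, so a dip there could not be seen in that list. The whole-series list likewise gave the stretch a single region of 180.7 kb, at 11316617 to 11497353, with a score of 1.90, beside a left region of 32.4 kb with a score of 2.01.

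Averaged over length, the score of the domain was 2.02 in replicate 1, 1.75 in replicate 2 and 1.87 in the whole-series list. The regions of 2L outside the window averaged 1.17, 0.99 and 0.86 in the same lists.

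**Figure D2:**
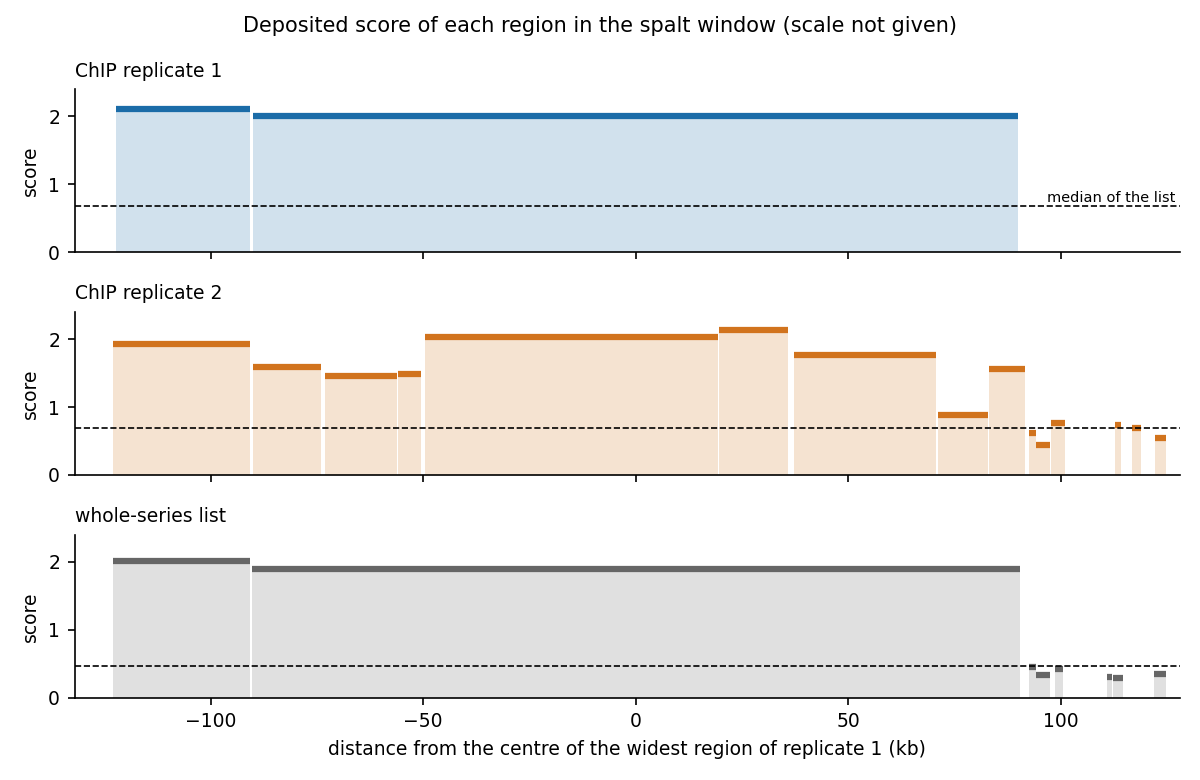
Score of each region of the spalt window (y axis, the authors' value on a scale not given) against the distance in kb from the centre of the widest region of replicate 1, with 1 panel per list. Horizontal bars span the regions and the dashed lines mark the median score of each whole list, 0.68 in replicate 1, 0.68 in replicate 2 and 0.47 in the whole-series list. In replicate 2 the pieces of the domain lie above the median up to the right shoulder, where 2 of the 3 narrow pieces lie below it.

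Only 1 gap inside the domain was shared by the replicates. It parted the left region from the rest, 31.7 kb from the left edge of replicate 1 and 180.1 kb from its right edge. Replicate 1 was open from 11316255 to 11316968 (714 bp) and replicate 2 from 11316281 to 11317064 (784 bp). The stretch open in both, 11316281 to 11316968, was 688 bp long, which was 96.4% of the first gap and 87.8% of the second. The whole-series list narrowed it to 327 bp, from 11316290 to 11316616, and these bases were open in all 3 lists. Such agreement was common on the arm. Of 331 gaps under 1000 bp in replicate 1 on the rest of 2L, 133 (40.2%) were open in replicate 2 over at least 90% of their length, and 128 (38.7%) were wholly covered there. Whether the gap holds sequence to which reads do not map was not tested.

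Within the span common to both replicates, the other breaks were found in replicate 2 and not in replicate 1 or the whole-series list. Between these common edges, replicate 2 had 8 gaps with a total of 5101 bp, from 35 to 1520 bp wide. Apart from the shared gap, the other 7 were wholly covered both in replicate 1 and in the whole-series list. The widest, 1520 bp at 11442838 to 11444357, followed directly on the piece with the highest score. The next were 934 bp at 11356451 to 11357384 and 817 bp at 11333048 to 11333864. The remaining 4 were 557, 262, 192 and 35 bp wide. In the right shoulder, past the common span, replicate 2 had 3 more gaps of 1033, 17 and 179 bp. The whole-series list also had 3 gaps there, of 2278, 5 and 1140 bp, and the first of these was the widest gap inside the domain in any of the 3 lists. Counted in bases, replicate 2 still covered 97.6% of the common span, and replicate 1 covered 99.7%.

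Overlap of the replicates was larger in the spalt window, which was also far more covered, than over the rest of 2L. Both replicates covered 82.9% of the bases of the window, replicate 1 alone 1.77% and replicate 2 alone 5.97%. The remaining 9.36% lay in neither list. The Jaccard index, the length covered in both over the length covered in either, was 91.5% in the window and 54.6% on the rest of 2L. Of the covered length of replicate 1, 97.9% in the window and 81.0% on the rest of 2L lay in replicate 2. Of that of replicate 2, 93.3% in the window and 62.6% on the rest of 2L lay in replicate 1. All of these overlap shares rise with cover, which was 84.7% and 88.9% in the window. On the rest of 2L it was 25.3% and 32.7%. The overlap was not set against that expected from cover alone, so no closer agreement of the replicates is read from it. The window was chosen for a wide region, and the values of 1 window have no test.

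By number, 2 of the 2 regions of replicate 1 in the window touched a region of replicate 2, where 89.6% of its whole list did so by at least 1 bp. Of the regions of replicate 2, 9 of 15 touched replicate 1, where 47.9% of its whole list did. The 9 shared regions were the pieces of the domain up to 11498601, and the 6 unshared ones were the narrow regions to the right of them, of 1425 to 3374 bp. With 15 regions, no difference from the share of the whole list is read from this. Of the 8 regions of the whole-series list, 2 touched both replicates, 5 touched replicate 2 only and 1 touched neither. The last of these was 1283 bp wide, at 11517825 to 11519107, with a score of 0.30. The whole-series list held 100% of the window's bases found in both replicates, 100% of those that replicate 1 covered alone, 67.5% of those that replicate 2 covered alone and 11.7% of the remainder.

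Among the widest regions of replicate 1, the spalt region ranked 3 in width and was covered in replicate 2 about as fully as the others. Its 180.1 kb stand beside 83 other regions of at least 50 kb, which had a median of 82.8 kb, and 2 of them were wider. Its score of 2.01 was exceeded by 29 of the 83, whose median was 1.85. Replicate 2 covered it to 97.5%, where the 83 others had a median of 96.3% and ran from 61.1% to 100%. It lay in 8 pieces in replicate 2, where the others had a median of 5 and 20 of the 83 had more. Per length the order turned, with 4.44 pieces per 100 kb in the spalt region and a median of 5.85 in the others, of which 56 had more. The widest gap that replicate 2 left in it, 1520 bp, stood next to a median of 1504 bp. Whether it was more or less broken up than other wide regions thus depended on whether pieces were counted per region or per length.

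The 3 regions of replicate 1 nearest to it in width lay on 2L and 3R. The closest, at 5344099 to 5518231 on 2L, was 174.1 kb wide with a score of 2.03 and was covered to 96.7% in replicate 2 by 7 pieces. The second, at 6241644 to 6408213 on 3R, was 166.6 kb wide with a score of 1.83 and was covered to 97.5% by 5 pieces. The third, at 15284685 to 15446915 on 2L, was 162.2 kb wide with a score of 1.72 and was covered to 94.9% by 11 pieces. The spalt region and the closest of them each lay in 1 region of the whole-series list, while each of the other two touched 2.

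**Figure D3:**
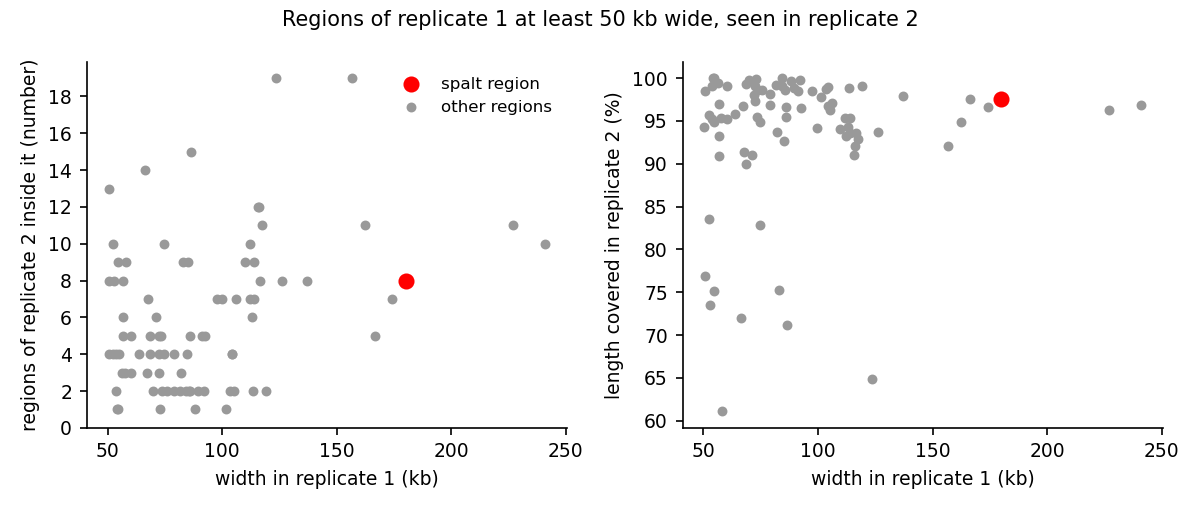
Regions of replicate 1 at least 50 kb wide, with the spalt region in red and the 83 others in grey. The x axes give the width in replicate 1 in kb, and the y axes give the number of regions of replicate 2 inside each (left) and the percentage of its length covered in replicate 2 (right, axis not from 0). The spalt region, at 180.1 kb, has 8 pieces and 97.5% cover.

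Set among windows of the same length, the spalt window was one of the most covered. The 5 major arms were cut end to end into 473 windows, with those on 2L laid so that the spalt window was among them. The spalt window ranked 10 in replicate 1 and 4 in replicate 2. The other 472 had a median cover of 16.8% in replicate 1 and 31.8% in replicate 2. On 2L alone it ranked 4 of 91 windows in replicate 1 and 1 of 91 in replicate 2. It held 2 regions in replicate 1 and 15 in replicate 2, where the other windows of the 5 arms, most of them far less covered, had medians of 8 and 21. The 3 windows that replicate 2 covered more, all on 3R, held 8, 10 and 12 of its regions, fewer than the spalt window. The spalt window was placed around its domain and the others were laid end to end, so the ranks are not a comparison of like with like.

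**Figure D4:**
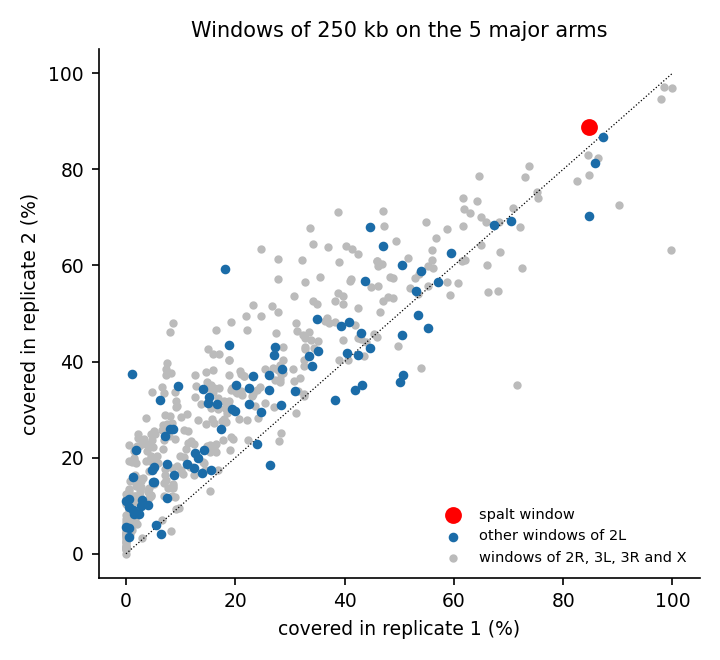
Percentage of each 250 kb window covered by H3K27me3 regions in replicate 1 (x axis) and replicate 2 (y axis), for 473 windows on the 5 major arms. The spalt window is red (84.7% and 88.9%), other windows of 2L are blue, those of 2R, 3L, 3R and X are grey, and the dotted line marks equal cover.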

How the data were processed

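H3K27me3 ChIP and input libraries from adult heads were sequenced in 2 replicates. Bowtie 0.12.7 was used, per the submitters' processing notes, and positions are on FlyBase release 5, per the file headers. Not given in the sources used here are the caller, its threshold and how the whole-series list was made. Each enriched region has a score that the authors deposited, on a scale that was not given. It was used only within a list. Start and end were deposited as 1-based positions. In replicate 2, 1 region marked as depleted was left out.

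From the lists, covered length, domain spans, gaps and overlaps were computed in base pairs with Python 3.11.15 and NumPy 2.4.6. Regions of the window under 5000 bp apart were joined, and the longest block was taken as the domain. Regions touching by at least 1 bp counted as shared. The code was tested on simulated data, with 0 mismatches in 200 pairs of lists. The named regions were those of the window and the 3 regions of at least 50 kb nearest in width. The window and genes were chosen with earlier results of these data known, so no test was run, and with 2 replicates an exact permutation test by sign flips (two-sided) cannot go below p = 0.5. Alternatives were score and width limits, joining, shifted borders, larger overlaps and each replicate alone. Gene positions and sequences were not used here, because the gene table at hand is of release 6.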

Additional observations from a re-analysis of the deposited data

How the results depend on the processing

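Mean cover of the window was 86.8% ± 2.97 (SD, n = 2) in the main run. With regions below the median score of their list left out it was 85.6%. With only regions of at least 5000 bp it was 84.2%, and joining regions under 1000 bp apart gave 87.7%. Mean cover moved further with the borders, to 96.2% when 25 kb were cut from each side and 73.8% when 25 kb were added. Each replicate alone gave 84.7% to 88.9%, and a domain span of 212.4 to 224.1 kb. When gaps of 1000 bp or more ended the domain, its mean span was 185.6 kb, since replicate 2 then broke at its 1520 bp gap into a block of 158.9 kb in 6 pieces. These counts of pieces were added after the data were seen. With regions below the median score of their list left out, the domain ended at 11497021 in replicate 1 and 11498601 in replicate 2. The last shoulder piece of replicate 2, 3374 bp wide with a score of 0.76, passed this limit. It was no longer joined to the domain, because the narrow pieces before it were left out. Joining regions under 1000 bp apart left 0 shared gaps, by construction. The Jaccard index was 93.8% with the score limit, 96.9% with regions of at least 5000 bp, 92.7% with joined regions, and 94.4% and 88.1% with the narrowed and widened window. Counts of shared regions stayed at 2 in replicate 1 and 9 in replicate 2 under a 50% overlap limit and under the score limit. Under the score limit the 9 stood among 12 regions of replicate 2 in the window, instead of 15. No paired analysis was possible because no list was given for either input and no result comes from a test. Unknown depth limits what the missing shoulder in replicate 1 can show.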
